A study of Homo sapiens with 6 samples.

Results

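The genes described here encode a coreceptor of the B cell receptor and 7 proteins that relay its signal inside the cell: CD22, BLNK, LAT2, PIK3AP1, BANK1, RASGRP1, BCL10 and MALT1. They were chosen by name, as the rows of the deposited table whose gene name equals one of these symbols, and all 8 were found among its 35410 genes. RNA was measured by MACE-Seq, which reads polyadenylated RNA at the 3′ end of its cDNA, so that a longer gene does not yield more counts for its length. The 6 libraries are 3 biological replicates of SEM::mock, which carries an empty vector, and 3 of SEM::EGR3, which carries the vector for EGR3 overexpression. Both are transfected lines of SEM, a human B cell precursor leukemia cell line of proB type with the KMT2A::AFF1 fusion. The transgene is inducible in both lines, and both received 1 µg/mL doxycycline for 48 h before RNA was extracted. Each condition is thus represented by 1 transfected line, and neither an uninduced library nor untransfected SEM cells were analysed here. A difference between the lines that arose before induction cannot be told apart from one that followed it.

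The levels given below are CPM, counts brought to the same library total after TMM normalization, a scaling that sets the bulk of the genes equal between libraries. Total counts lay between 5286115 and 6181388 in the SEM::mock libraries and between 7293092 and 15106018 in the SEM::EGR3 libraries. A line with 3 counts or fewer in each of its libraries was taken to be at the detection limit. In SEM::mock 3 counts correspond to between 0.503 and 0.588 CPM. A fold against a line at this limit is given as a lower bound, with every library of that line set to 3 counts, and such bounds cover counting error only. The lines were compared with edgeR's quasi-likelihood test, log2 fold changes are SEM::EGR3 over SEM::mock with their standard error (SE), and p-values were adjusted by the Benjamini-Hochberg method over 15465 tested genes. A gene was called at an adjusted p under 0.05.

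EGR3, an early growth response zinc finger factor, had 8, 10 and 6 counts in the libraries of SEM::mock, while the SEM::EGR3 libraries had 9768, 4952 and 5557, as their labels state. The labelled proB identity was met in part by the SEM::EGR3 libraries and not by the SEM::mock libraries. The former expressed the B lineage factors, although MS4A1, VPREB1 and DNTT, a mature B cell marker and a pair of precursor markers, had at most 9 counts in any of them. EBF1, a transcription factor that specifies the B lineage, had 0 counts in all 3 SEM::mock libraries, while the SEM::EGR3 libraries had 2058, 925 and 1145. PAX5, which commits cells to that lineage, had 1, 1 and 2 counts in SEM::mock, while the SEM::EGR3 libraries had 3410, 1443 and 1760. HOXA9, a homeobox gene that KMT2A fusions commonly activate, had 1, 2 and 3 counts in SEM::mock, while the SEM::EGR3 libraries had 825, 360 and 491. Of 12 B lineage markers, 3 had no count in any SEM::mock library, and the summed level of the list was between 160.8 and 185.8 CPM in SEM::mock and between 528.6 and 558.8 CPM in SEM::EGR3. The sum in SEM::mock came mostly from CD24, a surface protein that is also found outside the B lineage, at 143.7 CPM. KLF1, an erythroid transcription factor, was high in the libraries labelled SEM::mock, at 161.0 ± 5.52 CPM (SD, n = 3). In SEM::EGR3 KLF1 stood at 35.8 ± 1.52 CPM. Erythroid and megakaryocyte markers summed to between 442.9 and 449.5 CPM in SEM::mock and between 127.1 and 143.9 CPM in SEM::EGR3, and the myeloid and mast cell markers to between 284.7 and 292.5 CPM and between 107.1 and 110.7 CPM. MEIS1, another homeobox gene that KMT2A fusions activate, had 53, 48 and 38 counts in SEM::mock, or 8.29 ± 0.980 CPM, and stood at 47.2 ± 2.91 CPM in SEM::EGR3. HOXA9 and MEIS1 were chosen after their values were seen. Every fold below is therefore measured against libraries that carry the SEM::mock label but are at or near 0 for EBF1, PAX5 and HOXA9, and what is due to EGR3 and what to the 2 lines themselves cannot be told apart. The 3 libraries of each line were alike in these markers.

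The B cell receptor is a membrane immunoglobulin held by CD79A and CD79B, whose tails are phosphorylated by SRC family kinases and then bound by SYK. Adaptors such as BLNK gather BTK and phospholipase C gamma at the membrane, BANK1 and PIK3AP1 bring in further kinases, and CD22 damps the signal by recruiting the phosphatase SHP1. Diacylglycerol then activates RASGRP proteins, which load RAS with GTP, and protein kinase C beta, which acts upstream of the complex of BCL10 and MALT1 that turns on NF-kappaB. Cells of the proB stage, before the receptor is assembled, usually express part of this machinery.

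The start regions of the genes were compared first, because EGR3 binds GC-rich letters near gene starts. RefSeq sequence of 250 bases before the start was taken for 7 of the 8 genes, with 2 starts for BANK1 and none for LAT2. For CD22 and BANK1 these starts lie far inside the gene spans given below. The sequence before the outer ends of those spans was not searched. The letters searched on both strands were GCGNGGGCG for the EGR family, GGGCGG for SP and KLF factors and CAGGTG for E proteins, together with the palindromic EBF1 motif. The EGR and SP letters can share bases in a GC-rich stretch. The EGR letters were found in 1 of the 7 genes, RASGRP1, and in 8.41% of 35116 starts overall. The EBF1 motif, present in 1.06% of all starts, was in none of these windows. The SP and KLF letters, present in 42.6% of all starts, occurred 5 times before MALT1, 4 times before BCL10 and once before PIK3AP1. The E protein letters, present in 17.5% of all starts, occurred once each before BLNK, PIK3AP1 and RASGRP1. The share of G and C ranged from 40.4% before BLNK to 78.8% before MALT1, with 52.8% before CD22 and 54.0% and 47.2% before the 2 BANK1 starts. The starts that follow belong to CD22, a gene that rose with none of the letters in the window searched, and to PIK3AP1, which rose with 2 kinds of them. The others belong to MALT1, which fell, and to RASGRP1, which has the EGR letters. They are written 5′ to 3′ on the strand of the gene (GRCh38.p14), restricted to bases outside annotated exons, with matches in capitals. The last line gives 30 bases around the EGR letters of RASGRP1, which lie inside an exon annotated for another transcript.
CD22 chr19:35328937-35329165 plus strand: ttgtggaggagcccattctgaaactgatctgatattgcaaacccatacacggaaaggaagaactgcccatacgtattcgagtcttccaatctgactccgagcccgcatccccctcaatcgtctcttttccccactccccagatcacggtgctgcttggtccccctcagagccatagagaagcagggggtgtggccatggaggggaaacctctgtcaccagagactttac
PIK3AP1 chr10:96720515-96720764 minus strand: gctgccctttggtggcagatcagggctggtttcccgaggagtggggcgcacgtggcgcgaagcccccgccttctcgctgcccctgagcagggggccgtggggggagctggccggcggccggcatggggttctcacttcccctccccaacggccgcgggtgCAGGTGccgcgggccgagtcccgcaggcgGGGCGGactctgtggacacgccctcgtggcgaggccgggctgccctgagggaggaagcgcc
MALT1 chr18:58671215-58671385 plus strand: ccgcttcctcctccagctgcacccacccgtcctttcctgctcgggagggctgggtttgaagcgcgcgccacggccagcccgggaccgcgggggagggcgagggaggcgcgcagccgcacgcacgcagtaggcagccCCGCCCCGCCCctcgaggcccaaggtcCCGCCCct
RASGRP1 chr15:38564815-38564972 minus strand: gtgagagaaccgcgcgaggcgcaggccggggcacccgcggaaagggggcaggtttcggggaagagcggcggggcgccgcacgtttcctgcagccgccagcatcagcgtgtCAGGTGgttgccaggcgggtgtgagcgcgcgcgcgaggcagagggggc
RASGRP1 chr15:38565035-38565064 minus strand: gcaagGCGCGGGCGtggtagccgggagccc
The capitals mark the E protein letters and then the SP and KLF letters in PIK3AP1, the SP and KLF letters in MALT1, read there on the opposite strand and in part overlapping, and the E protein letters in the longer RASGRP1 stretch. In the 30 bases they mark the EGR letters, which begin 245 bases before the start. A match describes letters only, and binding of a factor was not measured in these libraries.

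Of the 8 genes, 7 had enough counts to be tested. CD22, LAT2, PIK3AP1, BANK1 and RASGRP1 were higher in SEM::EGR3, MALT1 was lower, BCL10 was not called, and BLNK was at the detection limit in both lines. The 5 higher genes compare with 36.5% of all tested genes called higher, and the 1 lower gene with 32% called lower, so that 6 of 7 called stand beside 68.5% over the whole table. In each of the 6 called genes the 3 SEM::EGR3 libraries did not overlap with the 3 SEM::mock libraries, a pattern shown by 70.1% of all tested genes, 37.5% upward and 32.6% downward. The changes were larger than in most genes. Of the 7 genes, 5 had an adjusted p under 0.05 and a log2 fold change of at least 1, which 16.7% of all tested genes reached upward and 8.5% downward. Their median log2 fold change was 4.24, beside 0.03 over all tested genes. The genes were chosen with earlier results of these data known, so that neither count is independent evidence.

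**Figure D1:**
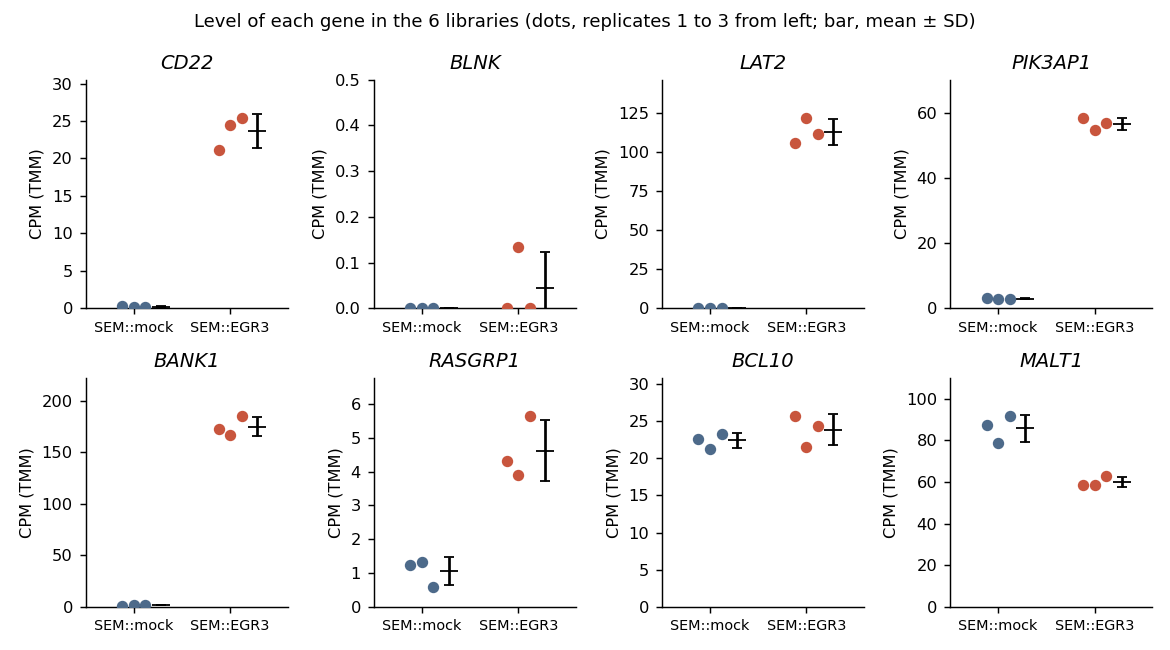
Level of each of the 8 genes in CPM after TMM normalization, on linear axes that start at 0 and differ between panels. Dots are the libraries of SEM::mock (blue) and SEM::EGR3 (red), and bars give the mean ± SD of 3 libraries. CD22, LAT2, PIK3AP1, BANK1 and RASGRP1 are higher in every SEM::EGR3 library, MALT1 is lower in every one, the BCL10 libraries overlap, and BLNK has a single count in 1 SEM::EGR3 library.

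CD22 (ENSG00000012124, chromosome 19, 35319261 to 35347355, plus strand) encodes a lectin of the Siglec family that binds sialic acid on the B cell surface and carries inhibitory tyrosine motifs. It had 2, 1 and 1 counts in SEM::mock replicates 1 to 3, while the SEM::EGR3 libraries had 327, 182 and 230. The corresponding levels were 0.353, 0.168 and 0.196 CPM in SEM::mock and 21.1, 24.5 and 25.4 CPM in SEM::EGR3. All 3 SEM::mock libraries were at the detection limit, and all 3 SEM::EGR3 libraries were far above it. The mean rose from 0.239 ± 0.100 CPM to 23.7 ± 2.28 CPM (SD, n = 3), at least 43.8-fold. The fitted log2 fold change was 6.52 (SE 0.285, 95% interval 5.93 to 7.11, edgeR adjusted p = 3.64e-16). With 10 counts per library as the limit the bound was 13.2-fold.

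PTPN6, which encodes SHP1, the phosphatase that CD22 recruits, rose from 0.869 ± 0.583 CPM to 132.9 ± 2.66 CPM, a log2 fold change of 7.19 (SE 0.153, edgeR adjusted p = 2.39e-22). LYN, the SRC family kinase that phosphorylates the tail of CD22, fell from 100.5 ± 3.52 CPM to 37.6 ± 1.86 CPM, a log2 fold change of -1.41 (SE 0.067, edgeR adjusted p = 2.14e-15). CD22 and the phosphatase gene were thus higher in SEM::EGR3, whereas the kinase gene was lower, though still at a higher level than CD22 itself.

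Of 20 other surface coreceptors and inhibitory receptors of B cells, 18 were analysed here and 7 had enough counts to be tested, of which 6 were higher and 1 was lower. Their median log2 fold change was 2.52. Over all tested genes 36.5% were called higher and 32% lower. The higher genes of this list included CD72, PECAM1, SIGLEC10, CD40 and CD81. CD72, a lectin-like inhibitory coreceptor that also recruits SHP1, rose from 2.15 ± 0.0289 CPM to 20.9 ± 2.28 CPM, a log2 fold change of 3.25. CD81, a tetraspanin of the coreceptor complex, rose from 302.6 ± 10.6 CPM to 668.8 ± 26.4 CPM, a log2 fold change of 1.15. SIGLEC10, another inhibitory Siglec, rose by a log2 fold change of 2.52 (SE 0.262). IFITM1, an interferon-induced membrane protein of the same complex, was the 1 gene that fell, by 2.18 on the log2 scale. FCGR2B, the inhibitory Fc receptor of B cells, had between 2 and 4 counts in every library and was not tested. The 11 analysed genes without a test included FCRL2 and FCRL3, Fc receptor-like genes of mature B cells, with at most 1 count in any library. SIGLEC10, PECAM1 and CD40 are named because the count of higher genes was small, after their values were seen.

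BLNK (ENSG00000095585, chromosome 10, 96191702 to 96271587, minus strand) encodes the central linker between SYK and BTK in B cells. It had 0 counts in all 3 SEM::mock libraries, while the SEM::EGR3 libraries had 0, 1 and 0. Both lines were at the detection limit, no fold can be given, and BLNK was removed by the filter on low counts. Without that filter its adjusted p was 0.602 (edgeR), at an estimate that rests on 1 read. A count of 0 allows up to 3 counts in a library, which sets the limit at 0.588 CPM or less in each SEM::mock library and at 0.194 and 0.332 CPM in SEM::EGR3 replicates 1 and 3. BLNK shares 355 exon bases with ZNF518A on the opposite strand, outside the last 500 bases of the gene, where MACE reads are expected to lie.

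LCP2, the relative of BLNK that serves T cells and myeloid cells as SLP-76, was present in both lines. Its levels were 70.7, 77.1 and 72.0 CPM in SEM::mock and 51.2, 50.5 and 52.2 CPM in SEM::EGR3. The SEM::EGR3 libraries all lay below the SEM::mock libraries, with a log2 fold change of -0.51 (SE 0.067, edgeR adjusted p = 2.51e-07). CLNK, the third gene of this small family, had between 0 and 3 counts in every library. LCP2 therefore made up 99.9% of the family's counts in SEM::mock and 99.6% in SEM::EGR3, and the B cell form of the linker was not detectable in either line at this depth.

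BLNK and PIK3AP1 are separated by 321724 bases on chromosome 10, with 4 protein-coding genes between them. The counts of this interval, looked at after the values of both genes were known, were low at the BLNK side. DNTT, the template-independent DNA polymerase of lymphoid precursors, had 0 counts in SEM::mock, while the SEM::EGR3 libraries had 2, 0 and 1. TLL2, a metalloproteinase gene, had 0 counts in SEM::mock, while the SEM::EGR3 libraries had 5, 2 and 6. TM9SF3, the gene next to PIK3AP1, had 869, 941 and 715 counts in SEM::mock, while the SEM::EGR3 libraries had 2320, 1152 and 1338, with a log2 fold change of 0.001 (SE 0.058, edgeR adjusted p = 0.985). PIK3AP1 thus rose beside an expressed neighbour that was not called.

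LAT2 (ENSG00000086730, chromosome 7, 74199652 to 74229834, plus strand) encodes a transmembrane linker of B cells, mast cells and myeloid cells, which binds GRB2 when phosphorylated. It had 1, 1 and 3 counts in SEM::mock, while the SEM::EGR3 libraries had 1639, 904 and 1006. The levels in SEM::EGR3 were 105.7, 121.8 and 111.2 CPM, against 0.177, 0.168 and 0.588 CPM in SEM::mock. The mean rose from 0.311 ± 0.240 CPM at the detection limit to 112.9 ± 8.16 CPM, at least 208.9-fold, or 62.7-fold with the limit at 10 counts. The fitted log2 fold change was 8.48 (SE 0.188, 95% interval 8.09 to 8.87, edgeR adjusted p = 5.3e-22), which placed LAT2 at rank 161 from the top of all tested genes. It came to 9.22 without SEM::mock replicate 3, the library with the most LAT2 counts of that line. LAT, the T cell counterpart of LAT2, had 1, 0 and 1 counts in SEM::mock, while the SEM::EGR3 libraries had 3, 3 and 1, too few for a test. Among the mast cell markers, FCER1A had 0 counts in all 6 libraries and MS4A2 had 1 count or fewer in each SEM::EGR3 library. The wider list of myeloid and mast cell markers had 4 tested genes, of which 1 was higher and 2 were lower. Their part in the rise of LAT2 was not tested.

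PIK3AP1 (ENSG00000155629, chromosome 10, 96593312 to 96720514, minus strand) encodes BCAP, the adaptor through which the receptor draws in PI3 kinase. It had 18, 17 and 15 counts in SEM::mock, while the SEM::EGR3 libraries had 908, 406 and 515. The libraries of each line lay close together, at 3.18, 2.85 and 2.94 CPM in SEM::mock and 58.6, 54.7 and 56.9 CPM in SEM::EGR3. The mean rose 19.0-fold from 2.99 ± 0.172 CPM to 56.7 ± 1.95 CPM, with a log2 fold change of 4.24 (SE 0.128, 95% interval 3.98 to 4.51, edgeR adjusted p = 2.05e-19). Among the 5 higher genes PIK3AP1 was the only one with at least 10 counts in every library.

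BANK1 (ENSG00000153064, chromosome 4, 101411286 to 102074812, plus strand) encodes a scaffold with ankyrin repeats that binds LYN and a calcium channel of internal stores and shares a domain with BCAP. It had 7, 12 and 9 counts in SEM::mock, while the SEM::EGR3 libraries had 2671, 1243 and 1676. Its levels were 1.24, 2.01 and 1.77 CPM in SEM::mock and 172.3, 167.4 and 185.2 CPM in SEM::EGR3. The mean rose 104.7-fold from 1.67 ± 0.395 CPM to 175.0 ± 9.20 CPM, with a log2 fold change of 6.70 (SE 0.124, 95% interval 6.44 to 6.95, edgeR adjusted p = 1.58e-23). BANK1 was the most abundant of the 8 genes in SEM::EGR3, in each of its 3 libraries. PLCG2, the phospholipase of B cell receptor signaling, rose less, from 1.94 ± 0.796 CPM to 6.58 ± 0.672 CPM, a log2 fold change of 1.70 (SE 0.254, edgeR adjusted p = 2.02e-06), and was named after its value was seen.

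Between these related scaffolds the order of levels turned round. For each PIK3AP1 count there were 0.389, 0.706 and 0.600 BANK1 counts in SEM::mock and 2.94, 3.06 and 3.25 in SEM::EGR3, so that BANK1 was the lower gene in every SEM::mock library and the higher one in every SEM::EGR3 library. PIK3AP1 held 64.4% ± 6.88 (SD, n = 3) of their summed counts in SEM::mock and 24.5% ± 0.939 in SEM::EGR3. Such a share is taken within a library and does not depend on how libraries are scaled. The SEM::mock values rest on 24 to 29 counts of both genes together.

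The wider group of 30 adaptor proteins of lymphocyte signaling split in direction. Of the 26 tested, 14 were higher, 5 were lower and 7 were not called, with a median log2 fold change of 0.39. These counts stand beside 36.5% higher and 32% lower over all tested genes. The higher genes with the largest changes at 100 counts or more were membrane or lymphoid adaptors. SIT1, a transmembrane adaptor that binds SHP2, had 1, 1 and 0 counts in SEM::mock, while the SEM::EGR3 libraries had 1679, 948 and 1020, a level at least 215.1-fold higher. GRAP, a lymphoid relative of GRB2, had 0 counts in SEM::mock, while the SEM::EGR3 libraries had 157, 88 and 110, a level at least 21.1-fold higher. HCLS1, an actin-binding substrate of LYN and SYK, rose from 1.15 ± 0.418 CPM to 92.8 ± 8.68 CPM, a log2 fold change of 6.35 (SE 0.163, edgeR adjusted p = 8.94e-21). GRB2, which LAT2 and BLNK bind, fell from 135.8 ± 3.74 CPM to 107.4 ± 5.80 CPM, a log2 fold change of -0.34 (SE 0.059, edgeR adjusted p = 1.99e-05), and DOK3, an inhibitory adaptor, fell by 0.41 on the log2 scale. SHC1, GAB2, CBLB and NCK1 were among the 7 that were not called.

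RASGRP1 (ENSG00000172575, chromosome 15, 38488103 to 38565575, minus strand) encodes a RAS exchange factor switched on by diacylglycerol, which is the main form in T cells and is also found in B cells. It had 7, 8 and 3 counts in SEM::mock, while the SEM::EGR3 libraries had 67, 29 and 51. The levels were 1.24, 1.34 and 0.588 CPM in SEM::mock and 4.32, 3.91 and 5.64 CPM in SEM::EGR3. The groups did not overlap, and the gene was the lowest of the tested 7 in SEM::EGR3. The mean rose 4.38-fold from 1.06 ± 0.408 CPM to 4.62 ± 0.903 CPM, with a log2 fold change of 2.08 (SE 0.316, 95% interval 1.43 to 2.74, edgeR adjusted p = 2.62e-06). RASGRP1 shares 105 exon bases with an antisense gene that had at most 2 counts in a library.

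The 4 RASGRP genes changed in different directions. RASGRP2, the form of platelets and other blood cells, which acts mainly on RAP and responds to calcium, rose from 22.1 ± 1.68 CPM to 35.5 ± 2.35 CPM, a log2 fold change of 0.68 (SE 0.094, edgeR adjusted p = 7.05e-07). RASGRP3, the form best known from B cells, fell from 5.38 ± 1.17 CPM to 2.39 ± 0.560 CPM, a log2 fold change of -1.09 (SE 0.242, edgeR adjusted p = 3.04e-04). RASGRP4, a form of mast cells and myeloid cells, fell from 4.75 ± 0.717 CPM to 0.871 ± 0.140 CPM, a log2 fold change of -2.38 (SE 0.282, edgeR adjusted p = 5.5e-08). RASGRP1 thus went from 3.14% ± 1.14 to 10.7% ± 2.53 (SD, n = 3) of the family's counts, from the smallest share in each SEM::mock library to the next largest after RASGRP2 in each SEM::EGR3 library. RASGRP2 remained the major form, at 66.5% ± 2.22 in SEM::mock and 81.8% ± 2.54 in SEM::EGR3. RASGRP3 went from 16.1% ± 2.19 to 5.50% ± 1.21 and RASGRP4 from 14.3% ± 2.44 to 2.01% ± 0.299.

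**Figure D2:**
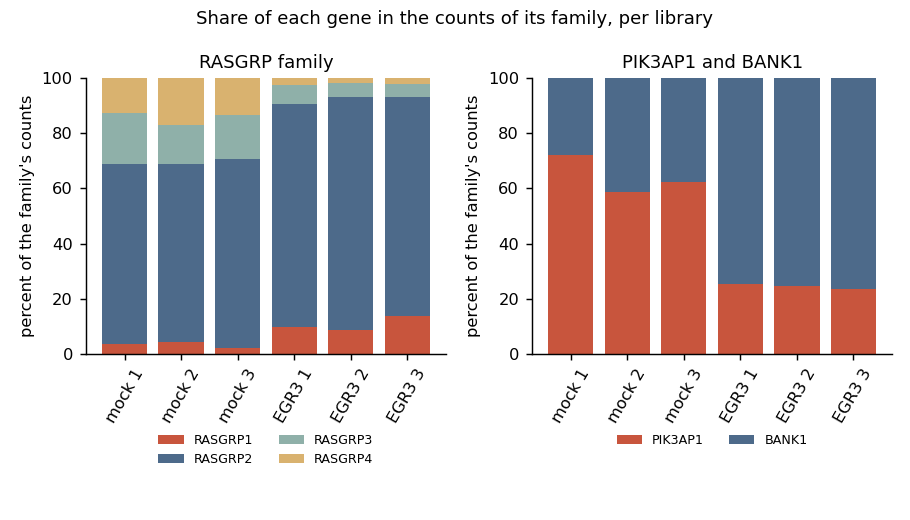
Share of each gene in the summed counts of its family, in percent, for each of the 6 libraries. Left, RASGRP1 to RASGRP4, with RASGRP2 the largest share throughout and RASGRP1 rising from a mean of 3.14% to 10.7%. Right, PIK3AP1 and BANK1, where the larger share passes from PIK3AP1 to BANK1.

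All 23 genes of the RAS and diacylglycerol arm beyond RASGRP1 were tested. Of these, 10 were higher, 8 were lower and 5 were not called, with a median log2 fold change of 0.09. Both shares were near those over all tested genes, 36.5% higher and 32% lower. Summed levels were 1194 to 1212 CPM in SEM::mock and 1163 to 1231 CPM in SEM::EGR3. The higher genes led by size were GTPase activating proteins, which switch RAS off. RASAL3, the one of blood cells, had 0 counts in SEM::mock, while the SEM::EGR3 libraries had 267, 139 and 171, a level at least 33.8-fold higher. RASA1 rose from 13.7 ± 0.703 CPM to 42.3 ± 2.43 CPM, a log2 fold change of 1.63 (SE 0.099), and RASA2 rose by 1.16 on the log2 scale. RASA3, of the same kind, fell by 1.02 on that scale. SOS1, the other main exchange factor of RAS, fell from 30.01 ± 2.51 CPM to 20.4 ± 1.89 CPM, a log2 fold change of -0.55 (SE 0.100), and MAP2K1, a kinase downstream of RAF, fell by 0.71. NRAS was not called, and HRAS rose by 0.57.

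BCL10 (ENSG00000142867, chromosome 1, 85265776 to 85276904, minus strand) encodes the protein that polymerizes into filaments when the receptor signals. It had 128, 127 and 119 counts in SEM::mock, while the SEM::EGR3 libraries had 398, 160 and 220. The levels were 22.6, 21.3 and 23.3 CPM in SEM::mock and 25.7, 21.6 and 24.3 CPM in SEM::EGR3, and the groups overlapped. The means were 22.4 ± 1.05 CPM and 23.9 ± 2.10 CPM, and the log2 fold change was 0.11 (SE 0.101, edgeR adjusted p = 0.342). The 95% interval of -0.10 to 0.32 leaves room for a small change in either direction.

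MALT1 (ENSG00000172175, chromosome 18, 58671386 to 58754477, plus strand) encodes the protease of the complex, which binds BCL10. It had 493, 470 and 467 counts in SEM::mock, while the SEM::EGR3 libraries had 910, 433 and 568. The levels were 87.1, 78.7 and 91.6 CPM in SEM::mock and 58.7, 58.3 and 62.8 CPM in SEM::EGR3, so that all 3 SEM::EGR3 libraries lay below all SEM::mock libraries. The mean fell to 0.699 of its SEM::mock level, from 85.8 ± 6.53 CPM to 59.9 ± 2.47 CPM, with a log2 fold change of -0.52 (SE 0.069, 95% interval -0.66 to -0.37, edgeR adjusted p = 3.64e-07). MALT1 shares up to 625 exon bases with genes on the opposite strand, of which AC104971.1 had 7 to 14 counts in SEM::mock and 12 to 19 in SEM::EGR3, few beside those of MALT1.

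For each BCL10 count there were 3.85, 3.70 and 3.92 MALT1 counts in SEM::mock and 2.29, 2.71 and 2.58 in SEM::EGR3, without overlap. The transcripts of these partners were thus unequal in their change. The ratio, chosen after the values were seen, does not depend on library scaling.

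CARD9, an activator of BCL10 in myeloid cells, went the other way from MALT1, from 6.01, 7.37 and 5.10 CPM in SEM::mock to 21.0, 19.8 and 23.8 CPM in SEM::EGR3. Its log2 fold change was 1.79 (SE 0.146, edgeR adjusted p = 7.71e-11). CARD10, an activator of BCL10 outside blood cells, was not called, at 9.84 ± 3.09 CPM and 11.7 ± 1.19 CPM with overlapping libraries (log2 fold change 0.23, SE 0.169, edgeR adjusted p = 0.233). CARD14 had at most 2 counts in any library. BCL10, at 23.9 CPM in SEM::EGR3, was thus accompanied by CARD9 at a similar level there, whereas in SEM::mock CARD9 was the lower of the pair in each library.

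**Figure D3:**
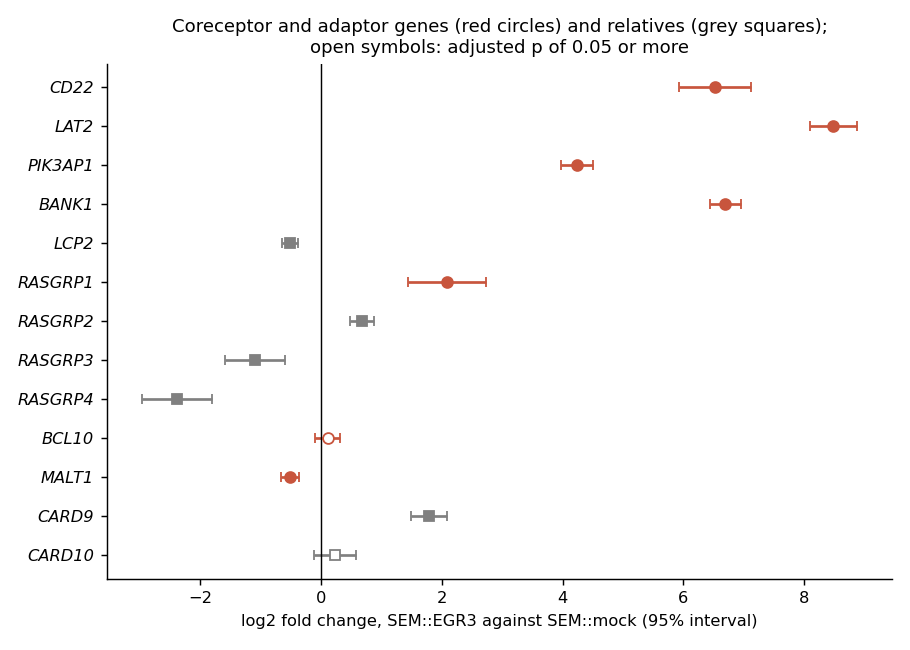
Fitted log2 fold change of SEM::EGR3 against SEM::mock (x axis) with its 95% interval, for the tested coreceptor and adaptor genes (red circles) and for their close relatives (grey squares). Open symbols have an adjusted p of 0.05 or more, which holds for BCL10 and CARD10. The estimates of LAT2 and CD22 depend on how counts near 0 in SEM::mock are treated.

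Of 26 genes of the signaling arm from BCL10 and MALT1 to NF-kappaB, without these 2 genes, 24 were tested. Of these, 3 were higher, 9 were lower and 12 were not called, with a median log2 fold change of -0.15. The share of lower genes was near the 32% over all tested genes, and that of higher genes was below the 36.5%. The summed level of the list was between 1218 and 1285 CPM in SEM::mock and between 958.4 and 989.8 CPM in SEM::EGR3. PRKCB, protein kinase C beta, fell from 531.8 ± 42.0 CPM to 314.7 ± 8.33 CPM, a log2 fold change of -0.76 (SE 0.057, edgeR adjusted p = 1.38e-11). IKBKG, the regulatory subunit of the IkappaB kinase, fell from 25.5 ± 2.47 CPM to 16.9 ± 1.56 CPM, a log2 fold change of -0.58 (SE 0.108). Of the NF-kappaB subunit genes in the list, RELA fell by 0.25, NFKB1 by 0.28 and RELB by 0.32 on the log2 scale, and REL was not called. The call on RELB was weak (edgeR adjusted p = 0.0483), with overlapping libraries. The higher genes were CARD9, TAB1 and SHARPIN, of which TAB1, a partner of the TAK1 kinase, rose by 0.52 and SHARPIN, a part of the linear ubiquitin ligase, by 0.45. Without scaling factors 5 genes of this list were higher in place of 3. MALT1 substrates that restrain the pathway, TNFAIP3, CYLD and ZC3H12A, were not called, and RC3H1 fell by 0.46.

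The PI3 kinase and calcium arm, into which PIK3AP1 and BANK1 feed, held 27 genes. Of the 26 tested, 14 were higher, 9 were lower and 3 were not called, with a median log2 fold change of 0.42. Among all tested genes 36.5% were called higher and 32% lower. The catalytic subunits split. PIK3CD, the form that lymphocytes rely on, rose by 1.13 on the log2 scale, whereas PIK3CG fell by 1.27 and PIK3CB fell by 1.22. VAV2, a guanine nucleotide exchange factor, rose from 13.4 ± 1.24 CPM to 41.6 ± 2.65 CPM, a log2 fold change of 1.62 (SE 0.103, edgeR adjusted p = 5.88e-13). ORAI2, a calcium channel subunit, fell by 0.89. PIK3CD and PIK3CA were named after their values were seen.

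Upstream, all 11 genes of the receptor and its proximal kinases were tested, of which 7 were higher and 4 were lower, beside 36.5% and 32% of all tested genes. The median log2 fold change of the list was 2.66, or 2.29 with genes at the detection limit set to their bounds. IGHM, the heavy chain of the receptor, had 0 counts in SEM::mock, while the SEM::EGR3 libraries had 2514, 1259 and 1424, a level at least 301.8-fold higher. BLK, a SRC family kinase of B cells, had 0 counts in SEM::mock, while the SEM::EGR3 libraries had 325, 146 and 175, a level at least 37.0-fold higher. CD79A, whose tail starts the signal, had 1, 3 and 3 counts in SEM::mock, while the SEM::EGR3 libraries had 764, 412 and 468. The genes that fell were LYN, BTK, TEC and SYK, of which SYK had the weakest call (edgeR adjusted p = 0.0177). The list had 3 lower genes in place of 4 under DESeq2, without scaling factors, with the deposited totals, with at least 10 counts in every library, and without SEM::mock replicate 2 or SEM::EGR3 replicate 2. BTK, the kinase that BLNK holds near its substrate, fell from 106.7 ± 8.84 CPM to 61.7 ± 6.44 CPM, a log2 fold change of -0.80 (SE 0.076, edgeR adjusted p = 1.23e-09), and SYK fell by 0.19. These 4 kinases are expressed in myeloid cells as well as in B cells.

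**Figure D4:**
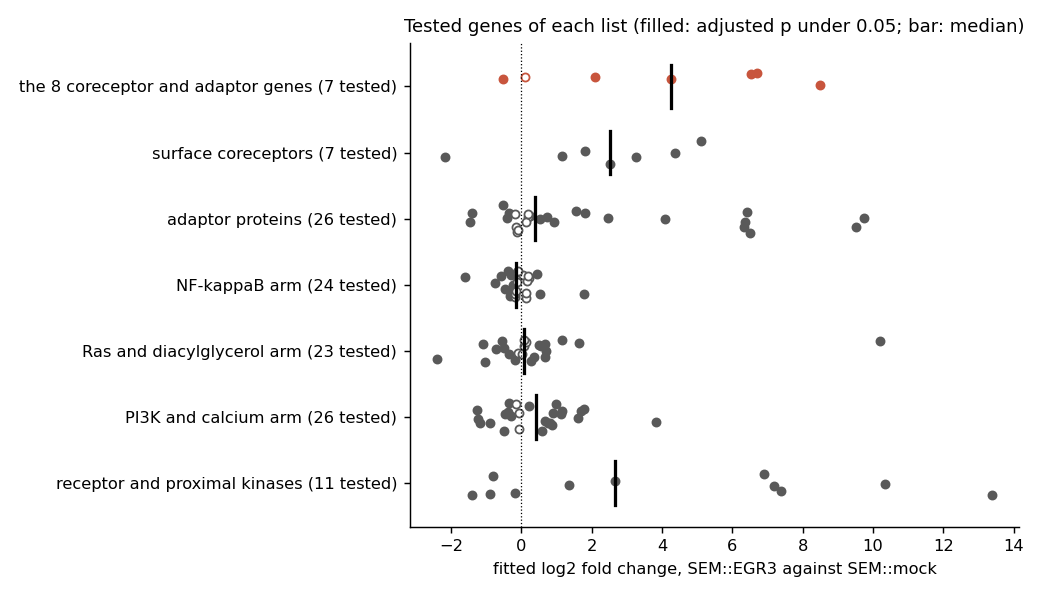
Fitted log2 fold change of SEM::EGR3 against SEM::mock (x axis) for every tested gene of the 8 coreceptor and adaptor genes (red) and of the 6 surrounding lists (grey). Filled dots have an adjusted p under 0.05, and the black bar is the median of the list. The 8 genes and the receptor list spread far to the right, while the NF-kappaB arm and most of the RAS arm lie around 0. Genes with 0 counts in SEM::mock, such as IGHM and RASAL3, have fitted values that depend on how a count of 0 is treated.

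Ordered by level, the 8 genes changed places between the lines. One transcript gives reads from one end in MACE-Seq, so that CPM of different genes can be set side by side without a length correction. In SEM::mock the order by mean CPM was MALT1, BCL10, PIK3AP1, BANK1, RASGRP1, LAT2, CD22 and BLNK. The libraries of BANK1 and RASGRP1 overlapped there, as did those of LAT2 and CD22, and the highest LAT2 library equaled the lowest RASGRP1 library at 0.588 CPM. In SEM::EGR3 the order was BANK1, LAT2, MALT1, PIK3AP1, BCL10, CD22, RASGRP1 and BLNK. The libraries of MALT1 and PIK3AP1 overlapped there, as did those of BCL10 and CD22. The summed level of the 8 genes was between 106.5 and 121.0 CPM in SEM::mock, where MALT1 and BCL10 made up most of it, and between 446.3 and 471.5 CPM in SEM::EGR3.

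In SEM::EGR3, CD22 and LAT2 thus rose from the detection limit, PIK3AP1, BANK1 and RASGRP1 rose from low levels, neither BCL10 nor MALT1 was called higher, and BLNK had 1 count in all. The same libraries differed in markers of several lineages. The marker counts that follow stand beside 36.5% of all tested genes called higher and 32% called lower. Of 9 tested B lineage markers, 7 were higher and 1 was lower. The lower one, CD24, fell from 143.7 ± 11.2 CPM to 23.5 ± 0.530 CPM, a log2 fold change of -2.61 (SE 0.073). T cell markers summed to between 61.1 and 66.9 CPM in SEM::mock and between 106.2 and 117.2 CPM in SEM::EGR3, with 3 higher and 2 lower of 5 tested. Among them TRAC, the constant part of the T cell receptor alpha chain, rose from 1.21 ± 0.344 CPM to 74.7 ± 3.20 CPM, and ZAP70, the kinase of that receptor, from 0.183 ± 0.177 CPM to 25.7 ± 2.53 CPM. CD3D, a defining part of the receptor complex, fell by 3.25 on the log2 scale, and CD247, another, had at most 6 counts in any library. NK cell markers summed to between 5.86 and 7.25 CPM and between 21.6 and 24.1 CPM, with 1 higher and 1 lower of 2 tested. PRF1, the pore-forming protein of cytotoxic cells, rose from 0.485 ± 0.133 CPM to 18.8 ± 1.02 CPM, and GNLY had at most 2 counts in any library. Of the 4 tested markers of myeloid and mast cells 1 was higher and 2 were lower. ITGAM, the higher one, rose from 4.09 ± 0.539 CPM to 13.1 ± 1.26 CPM. LYZ, which encodes lysozyme, fell from 154.6 ± 8.75 CPM to 42.7 ± 1.32 CPM and CD33, a myeloid Siglec, from 124.0 ± 4.04 CPM to 48.1 ± 2.20 CPM. MPO and CSF1R were at 0 in every SEM::mock library and TPSAB1 had no more than 1 count in any library. Of the 4 tested erythroid and megakaryocyte markers 1 was higher and 3 were lower. The part of these lineage markers in the rise of CD22, LAT2, PIK3AP1, BANK1 and RASGRP1 and in the fall of MALT1, RASGRP3 and RASGRP4 was not tested. In such bulk libraries fewer cells of a type and less RNA per cell cannot be told apart. Each call on the 7 tested genes held when any 1 library was left out, with log2 fold changes of 6.30 to 6.89 for CD22, 4.20 to 4.28 for PIK3AP1, 6.50 to 6.85 for BANK1, 1.81 to 2.28 for RASGRP1 and -0.59 to -0.49 for MALT1, while BCL10 remained without a call at 0.05 to 0.17.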

How the data were processed

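MACE-Seq libraries of SEM::mock and SEM::EGR3 (3 biological replicates each) were grouped by their titles, and the column headings spelling ERG3 were read as SEM::EGR3. According to the submitters' processing notes, bcl2fastq, Bowtie2, HTSeq and the build GRCh38 were used, whereas the annotation, the strand setting and the use of molecular identifiers are not given in the sources used here. RNA passed an integrity check in the study. The authors deposited whole read counts per gene without normalization. They also deposited CPM values headed TPM, which relate the counts to larger library totals, between 7172067 and 20310325, of which the listed genes made up 73.6% to 75.8%. These totals served as an alternative library size. The deposited size-factor normalized values (6 columns of per-sample values) and the authors' own fold changes and p-values were not used. No row lacks a gene name.

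The count tests used edgeR 4.0.16 under R 4.3.3 (filterByExpr, TMM, glmQLFit and glmQLFTest over all 6 libraries, no further term), and the procedure was tested on simulated data. Standard errors were derived from the log2 fold change and its F statistic. Replicates differed by more than counting noise in every pair, with chi-square values per degree of freedom between 1.71 and 3.12, and p-values measure the spread between these libraries. Positions are from GENCODE release 29 (GRCh38), which held 34339 of the 35410 identifiers (97.0%), and start regions from RefSeq (GRCh38.p14).

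All 8 genes, their relatives and, of each pathway list, the 3 largest rises and falls among called genes that averaged 100 counts or more in their higher line were named. Genes named beyond this, in the marker lists or as examples of genes that were not called, were chosen after their values were seen. The members and the lists were chosen with earlier results of these data known. Alternatives were DESeq2 1.42.0, other or no scaling factors, other filters on low counts, the replicate number as a term, each library left out, thinned counts, a minimum log2 fold change of 1 and a limit of 10 counts; leaving libraries out of the count ratios was added after seeing the data. Some genes of these lists enter counts, medians and summed levels but are not reported one by one.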

Additional observations from a re-analysis of the deposited data

How the results depend on the processing

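Over 567 values recomputed under alternatives, 546 were taken as the same, 21 moved and 0 reversed. A fold change was the same if its direction and call held, and a share or ratio if it stayed within its SD. A count of genes was the same if it stayed within a set fold of the main count. Thus 4251 genes higher in place of 5640, with at least 10 counts in every library, was taken as the same. CD22 lay between 6.30 and 6.89, LAT2 between 8.17 and 9.22, PIK3AP1 between 4.20 and 4.33, BANK1 between 6.50 and 6.85, BCL10 between 0.05 and 0.20 (adjusted p between 0.0855 and 0.743), MALT1 between -0.59 and -0.43 and RASGRP1 between 1.81 and 2.31 on the log2 scale under DESeq2 and edgeR alike. With at least 10 counts in every library, CD22, LAT2, BANK1 and RASGRP1 could not be tested, which left 1 of the 8 genes higher, 2 higher and 0 lower among surface coreceptors, and 1 higher in the receptor list, through fewer genes tested. With a minimum absolute log2 fold change of 1, all genes gave 2581 higher and 1315 lower, the 8 genes 0 lower, adaptor proteins 2 lower, the NF-kappaB arm 1 higher and 1 lower, the RAS arm 3 higher and 3 lower, the PI3 kinase arm 6 higher and 3 lower and the receptor list 1 lower. Without scaling factors, and with the deposited totals, the NF-kappaB arm had 5 higher genes, while the median of all genes was 0.11 and 0.12 in place of 0.03. The cause was not tested. With the limit at 10 counts the bounds were 13.2-fold for CD22 and 62.7-fold for LAT2. Thinned to the smallest total, the share of CLNK among BLNK, LCP2 and CLNK in SEM::EGR3 was 0.119%. The replicate numbers did not pair the libraries (correlations of same-numbered deviations between -0.11 and -0.03), and with the replicate block LAT2 was at 8.49, MALT1 at -0.52 and BCL10 at 0.09, with 5388 genes higher and 4693 lower and no call on the 8 genes changed. Depth limits what can be said of BLNK, of the SEM::mock levels of CD22 and LAT2 and of family shares that rest on few counts.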
